A study of Drosophila melanogaster with 4 samples.

Results

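The odorant binding protein genes of Drosophila melanogaster were followed in whole embryos of 16 to 18 h. They were taken as every gene of the deposited count table whose symbol starts with Obp and a digit, which gave 51 genes of 16727. The gene lush, also called Obp76a, carries another symbol in the table and was therefore not a member. There were 2 libraries of H3.2-K4R embryos (genotype deltaHisC; 12xH3.2-K4R) and 2 libraries of H3.2-WT embryos (deltaHisC; 12xH3.2-WT). All embryos lacked the native cluster of replication-dependent histone genes on both chromosomes, were picked by GFP, and carried a transgene with 12 histone gene copies. The transgenic histone H3.2 had arginine at lysine 4 in H3.2-K4R and the normal residue in H3.2-WT. The genes of the variant histone H3.3, which lie outside that cluster, were not altered in the genotypes given. Eggs were collected for 2 h and aged for 16 h at 25 °C, so each library pools many whole animals, and fewer cells of a type cannot be told apart from less RNA per cell.

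Odorant binding proteins are small secreted proteins with a hydrophobic pocket closed by conserved disulfide bonds. In olfactory and taste bristles of the adult fly, support cells release them into the fluid around the receptor neurons, where they bind odorants or other small hydrophobic molecules. Members of the family are also made outside the nose, among others by glia and by the male reproductive tract. Late in embryogenesis the sense organs of the larval head take their final form.

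Depth ran from 33882742 to 45509930 counted read pairs per library. The 13 listed markers of late embryonic epidermis, muscle and trachea were all detected, with a summed level of 22841 and 20284 counts per 1000000 pairs (CPM) in H3.2-K4R and 26556 and 25335 CPM in H3.2-WT. By the tests described with the fold changes, edgeR and limma-voom called 0 of them and DESeq2 called 1 higher (ple). At an unadjusted edgeR p under 0.05, the muscle genes Mlc2, Act57B and wupA were lower and ple was higher, where 9.2% of all tested genes were lower and 7.68% higher. None of the 6 listed genes of the male accessory gland and germ line was detected. Counts differed between libraries of 1 group far beyond counting error (chi-square over degrees of freedom 91.9 in H3.2-K4R and 53.4 in H3.2-WT). H3.2-K4R replicate 2 stood apart on the first principal component of all tested genes, with a score of -75.8, while H3.2-K4R replicate 1 scored -0.691 and the H3.2-WT libraries 45.5 and 31.0. Nothing in the labels says that the libraries came from separate collections, so p-values describe the variation among the libraries at hand, which may be technical.

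Counts above 0 in at least 1 library were found for 42 of the 51 genes. With detection set at 10 or more counted pairs in at least 2 of the 4 libraries, 22 of the 51 genes (43.1%) were detected, against 69.6% of all genes in the table. Of these, 16 had 10 or more counts in every library, 4 in 3 libraries and 2 in 2 libraries. A further 20 genes had some counts without reaching that level, and 9 were at 0 in all libraries. Counts depend on exon length, and the members are short (median 645 bases, against 1902.5 in all tested genes). The shares of detected genes were not matched for length. By library, 23 and 20 members had 10 or more counts in H3.2-K4R replicates 1 and 2, against 24 in each H3.2-WT library. A count of 0 allows a level of up to 0.0704 and 0.0830 CPM in the H3.2-K4R libraries and 0.0880 and 0.0647 CPM in the H3.2-WT libraries (3 counts per library; counting error only). The number depends on the level set: 29 genes had more than 3 counts in at least 2 libraries, and 14 had 1 CPM or more in at least 2.

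**Figure D1:**
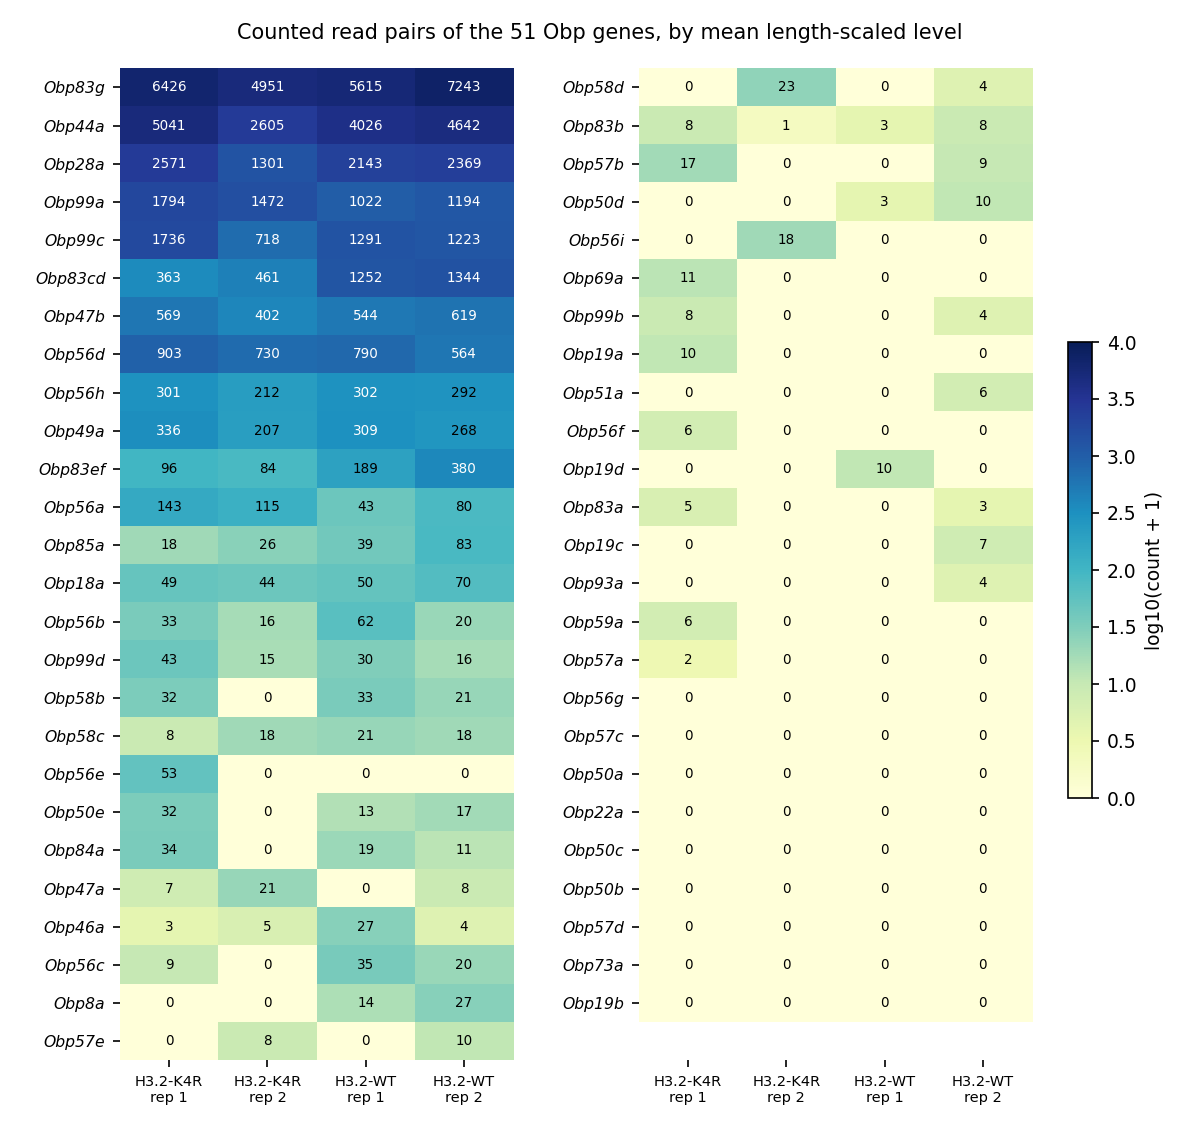
Counted read pairs of the 51 Obp genes in each library, H3.2-K4R at left and H3.2-WT at right of each panel, ordered down the left panel and then the right one by mean level per kilobase of exon. Colour is log10(count + 1), and 9 genes at the end of the right panel have 0 in every library.

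Some of the undetected genes are known from adult organs, as are some of the detected ones described further on. Obp56g and Obp22a, which encode seminal fluid proteins of the adult male, were at 0 in all libraries. Among the 7 members known from seminal fluid, Obp8a alone was detected, and the highest count of any of them was 53 pairs, for Obp56e in H3.2-K4R replicate 1. Obp83a and Obp83b, neighbouring genes for proteins that fill the trichoid sensilla of the adult antenna, had 5 and 0 counts and 8 and 1 counts in H3.2-K4R, against 0 and 3 and 3 and 8 counts in H3.2-WT. Obp59a, known from the humidity-sensing sensilla of the antenna, had 6 and 0 counts in H3.2-K4R and 0 and 0 in H3.2-WT. Obp57d and Obp57e act in the taste of plant fatty acids by the adult leg. Obp57d was at 0 throughout, and Obp57e had 0 and 8 counts in H3.2-K4R against 0 and 10 in H3.2-WT. lush, the binding protein for the male pheromone vaccenyl acetate, is no member by name, and it was likewise under the detection level.

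The 0 of Obp50b and Obp50c is not informative, and that of Obp57d may not be. Obp50b and Obp50c have the same start and end in the table (2R, 14371186 to 14373006) and exons that overlap on the same strand, and Obp57d shares same-strand exon sequence with the cuticle gene Cpr57A. A pair falling on 2 such genes was not counted for either. How much of the exon sequence of Obp57d is shared was not measured. No other member overlapped another gene on its own strand.

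Sparse members were patchy between libraries. Obp56e had 53 and 0 counts in H3.2-K4R and 0 and 0 in H3.2-WT, and Obp56i had 0 and 18 in H3.2-K4R and 0 and 0 in H3.2-WT. Of the 19 members with 10 to 100 counts in all, 5 had 90% or more of them in 1 library (Obp56e, Obp56i, Obp69a, Obp19a and Obp19d). Across the table the same was true of 419 of 2332 genes with such totals, or 18.0%. For members in this range a difference between groups is not taken as a finding. Those that passed the low-count filter (Obp8a, Obp50e, Obp56c, Obp58b, Obp58c and Obp84a) still enter the medians and the counts of genes given below.

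Detection followed the position of the genes only in part. The 29 members on chromosome arm 2R included 11 detected genes, the 12 on 3R included 8, the 6 on X included 2, the 2 on 2L included 1 and the 2 on 3L included 0. The Obp19 genes (X, 20415744 to 20420979) had 0 of 4 detected, and the Obp57 genes (2R, 20503584 to 20550117) had 0 of 5. In the Obp50 block (2R, 14370331 to 14375385) 1 of 5 was detected. By contrast, all 3 genes of the block from Obp83cd to Obp83g (3R, 6108134 to 6112302) and 3 of the 4 Obp99 genes (3R, 29671657 to 29716896) were detected. The 9 Obp56 genes (2R, 19697723 to 19868714) were mixed, with 5 detected and 4 not. Of the 13 Plus-C members, a subfamily with extra conserved cysteines, 6 were detected.

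A small number of genes carried the signal of the family. All members together held 485 and 363 parts per 1000000 counted pairs in H3.2-K4R, against 528 and 453 in H3.2-WT. Obp83g, Obp44a and Obp28a supplied 67.9% and 65.8% of these pairs in H3.2-K4R and 65.9% and 69.2% in H3.2-WT. H3.2-K4R replicate 2 had the lowest share of the 4 libraries. It also had the lowest CPM of 11 of the 22 detected genes, where it was lowest in 35.1% of all tested genes.

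Levels between genes were compared as CPM per kilobase of exon. Obp83g was the most abundant member (3R, 6111671 to 6112302, minus strand), at 265 and 241 CPM per kilobase in H3.2-K4R and 290 and 274 in H3.2-WT. It lay apart from all others, above 98.2% of the genes of the table. Obp44a, described in the fly brain as a lipid-binding protein of astrocyte-like glia, had 110 and 67.0 CPM per kilobase in H3.2-K4R and 110 and 93.0 in H3.2-WT. Obp28a, one of the abundant binding proteins of the adult antenna, had 105 and 62.6 in H3.2-K4R and 109 and 88.8 in H3.2-WT on the same scale. Obp99a followed at a mean of 56.8 CPM per kilobase over the 4 libraries, then Obp99c at 46.7, Obp83cd at 24.2, Obp47b at 22.0, Obp56d at 20.8, Obp56h at 11.8 and Obp49a at 9.12. From Obp44a down to Obp99d, the 16th gene, the ranges of every gene and the next one in this order overlapped, so the order between neighbours was not beyond the spread of the libraries.

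**Figure D2:**
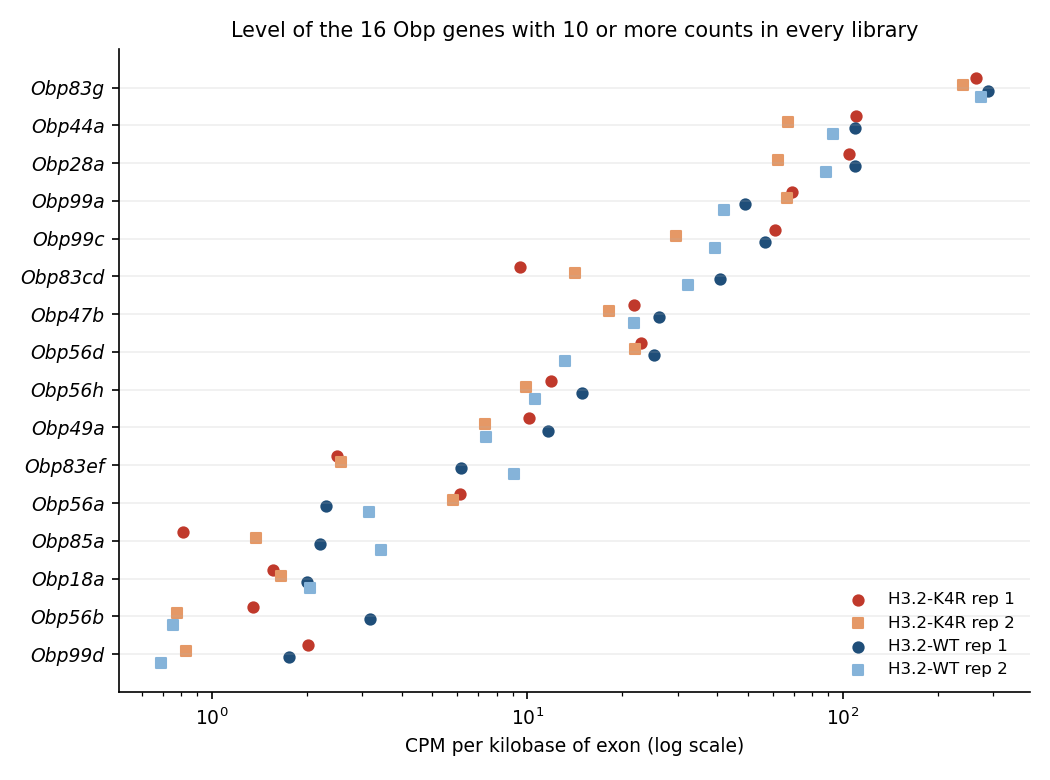
Level in CPM per kilobase of exon (log axis) of the 16 Obp genes with 10 or more counts in every library, 1 point per library. Obp83g stands above the rest, and both H3.2-K4R points lie below both H3.2-WT points for Obp83g, Obp83cd, Obp83ef, Obp85a and Obp18a, and above them for Obp99a and Obp56a.

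In H3.2-K4R, 1 of the 22 detected genes fell and 0 rose, the gene that fell being Obp83cd. The test was edgeR's quasi-likelihood test, with p-values adjusted by Benjamini-Hochberg over all 11562 tested genes. Across all of these, 0.173% were called lower and 0.415% higher at an adjusted p under 0.05. At an unadjusted p under 0.05, 3 members were lower (Obp83cd, Obp83ef and Obp8a) and 1 was higher (Obp99a), against 9.2% and 7.68% of all tested genes. DESeq2 called 2 members lower (Obp83cd and Obp83ef) and 0 higher, against 3.07% and 3.58% of the 9993 genes to which it gave an adjusted p. It gave none to Obp8a, Obp56c and Obp85a, among other genes of low count, so it could not call them. By limma-voom 1 member was lower (Obp83cd) and 0 were higher, against 0.623% and 0.874% of all tested genes. The CPM of the groups did not overlap in 7 members that were lower and 2 that were higher, against 27.5% and 23.6% of all tested genes. All 22 detected members, and no other member, passed the filter on low counts. Each fold change is given as the log2 ratio with H3.2-K4R on top.

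The detected members had a median log2 fold change of -0.23, with 16 below 0 and 6 above, where the median over all tested genes was -0.02 and 51.9% lay below 0. In the 16 members with 10 or more counts in every library the median was -0.21, with 12 below 0. With 1 library left out the low-count filter was run anew, so the set of tested members changed as well. Their median was 0.08 over 25 members without H3.2-K4R replicate 2 and -0.58 over 26 without H3.2-K4R replicate 1. It was 0.05 over 27 members without H3.2-WT replicate 1 and -0.32 over 27 without H3.2-WT replicate 2. How much of each shift came from the changed set was not tested. Obp genes are short, with a median exon length of 679 bases in the tested members against 1902.5 in all tested genes, and the 4886 tested genes of at most 1648 bases, the longest member, had a median of -0.14. With the trend of each library with exon length removed, the median of the members was 0.02, beside 0.03 for all tested genes.

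**Figure D3:**
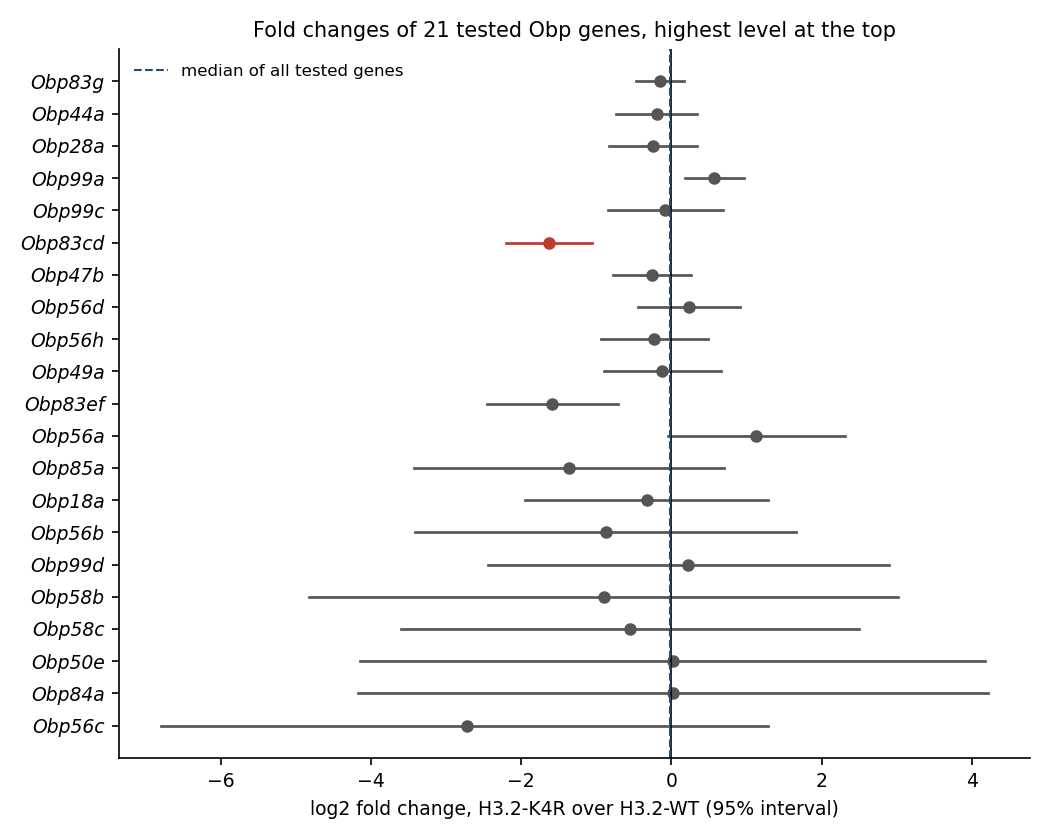
Log2 fold change (H3.2-K4R over H3.2-WT) and 95% interval of 21 tested Obp genes, from the highest level per kilobase at the top to the lowest at the bottom. Obp83cd (red) is the gene past the adjusted threshold, and members of low level have wide intervals, such as -4.18 to 4.22 for Obp84a and -6.80 to 1.29 for Obp56c. Obp8a, at 0 counts in both H3.2-K4R libraries, has no finite interval and is left out.

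Obp83cd (3R, 6108134 to 6109733, plus strand) encodes a protein of 242 amino acids, against a median of 151 over the family, and belongs with Obp83ef (245 amino acids) to the members that carry a pair of binding protein domains in 1 chain. It had 363 and 461 counts in H3.2-K4R and 1252 and 1344 in H3.2-WT, which is 8.52 and 12.8 CPM in H3.2-K4R and 36.7 and 29.0 CPM in H3.2-WT. Both H3.2-K4R libraries were below both H3.2-WT libraries. The mean was 10.6 ± 3.0 CPM in H3.2-K4R and 32.9 ± 5.49 CPM in H3.2-WT (SD, n = 2 each), a log2 fold change of -1.63 ± 0.25 (SE; 95% interval -2.20 to -1.06; edgeR adjusted p = 0.0422). In the order of levels per kilobase it was 8th in H3.2-K4R and 6th in H3.2-WT. The call held when H3.2-K4R replicate 1 (-1.37) or H3.2-K4R replicate 2 (-1.95) was left out. It was lost when H3.2-WT replicate 1 (-1.43) or H3.2-WT replicate 2 (-1.79) was left out. Removing the exon-length trend also ended it (-1.39, edgeR adjusted p = 0.0559). It was also made by DESeq2 (adjusted p = 1.09e-05) and limma-voom (0.0150).

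Obp83ef (3R, 6109642 to 6111034, minus strand) runs towards Obp83cd, and the ends of their exons overlap by 92 bases on opposite strands. Strand was used in the counting, so the pairs of each were counted apart. Obp83ef had 96 and 84 counts in H3.2-K4R against 189 and 380 in H3.2-WT, or 2.25 and 2.32 CPM against 5.55 and 8.19 CPM. Again the groups did not overlap. Its log2 fold change was -1.59 ± 0.38 (SE; 95% interval -2.46 to -0.72), close in size to that of Obp83cd, and it was not past the threshold over all genes (edgeR adjusted p = 0.132; 0.0177 with DESeq2 and 0.0926 with limma-voom).

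Obp83g, the next gene on the minus strand and 636 bases from Obp83ef, did not share this difference in size. Its log2 fold change was -0.16 ± 0.14 (SE; 95% interval -0.48 to 0.16; edgeR adjusted p = 0.618), with 151 and 137 CPM in H3.2-K4R and 165 and 156 CPM in H3.2-WT. Its groups did not overlap either, with both H3.2-K4R libraries below both H3.2-WT libraries by a smaller margin. The interval of Obp83g does not reach that of Obp83cd. Within each library, Obp83cd had 5.65 and 9.31 counts for every 100 of Obp83g in H3.2-K4R, against 22.3 and 18.6 in H3.2-WT. For Obp83ef the same ratio was 1.49 and 1.70 in H3.2-K4R against 3.37 and 5.25 in H3.2-WT. The ratio between Obp83ef and Obp83cd overlapped between groups, at 26.4 and 18.2 counts per 100 in H3.2-K4R and 15.1 and 28.3 in H3.2-WT.

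**Figure D4:**
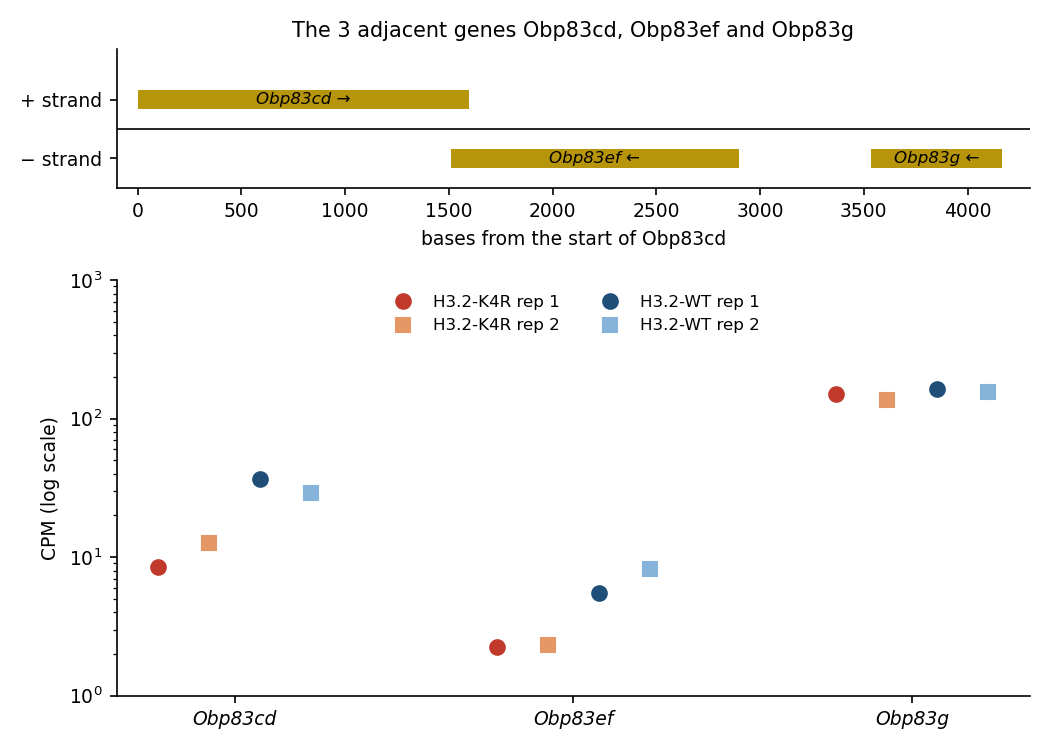
Top, extent of Obp83cd, Obp83ef and Obp83g in bases from the start of Obp83cd, with arrows for the direction of transcription. Bottom, their level in CPM (log axis) in each library; the H3.2-K4R points lie below the H3.2-WT points for all 3 genes, and the 4 points of Obp83g lie between 137 and 165 CPM.

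The other genes within 10000 bases of Obp83cd gave no call. Gasp, a chitin-binding protein gene of the trachea and cuticle, had 1693 and 1883 CPM in H3.2-K4R and 1602 and 1675 CPM in H3.2-WT (log2 fold change 0.13 ± 0.15, SE; edgeR adjusted p = 0.719). The noncoding gene CR44929 had 104 and 31 counts in H3.2-K4R against 45 and 70 in H3.2-WT, with a log2 fold change of 0.22 ± 0.73.

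Obp99a (3R, 29671657 to 29672334) was the well-counted member with the lowest p among those above 0. It had 1794 and 1472 counts in H3.2-K4R and 1022 and 1194 in H3.2-WT. The mean was 41.4 ± 0.964 CPM in H3.2-K4R and 27.9 ± 3.01 CPM in H3.2-WT (SD, n = 2 each). The groups did not overlap, and the log2 fold change was 0.57 ± 0.17 (SE; 95% interval 0.18 to 0.96; edgeR adjusted p = 0.179). Of the 10 other settings in the plot of settings, 1 called it, while the adjusted p was 0.0502 with DESeq2 and 0.109 with limma-voom. Obp99c (3R, 29685736 to 29689311) had 1736 and 718 counts in H3.2-K4R and 1291 and 1223 in H3.2-WT, so that the H3.2-K4R libraries lay on both sides of the H3.2-WT ones (-0.08 ± 0.33). Obp99d had 43 and 15 counts in H3.2-K4R and 30 and 16 in H3.2-WT, and Obp99b, known for its male-biased expression in the adult fat body of the head, had 8 and 0 in H3.2-K4R and 0 and 4 in H3.2-WT.

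**Figure D5:**
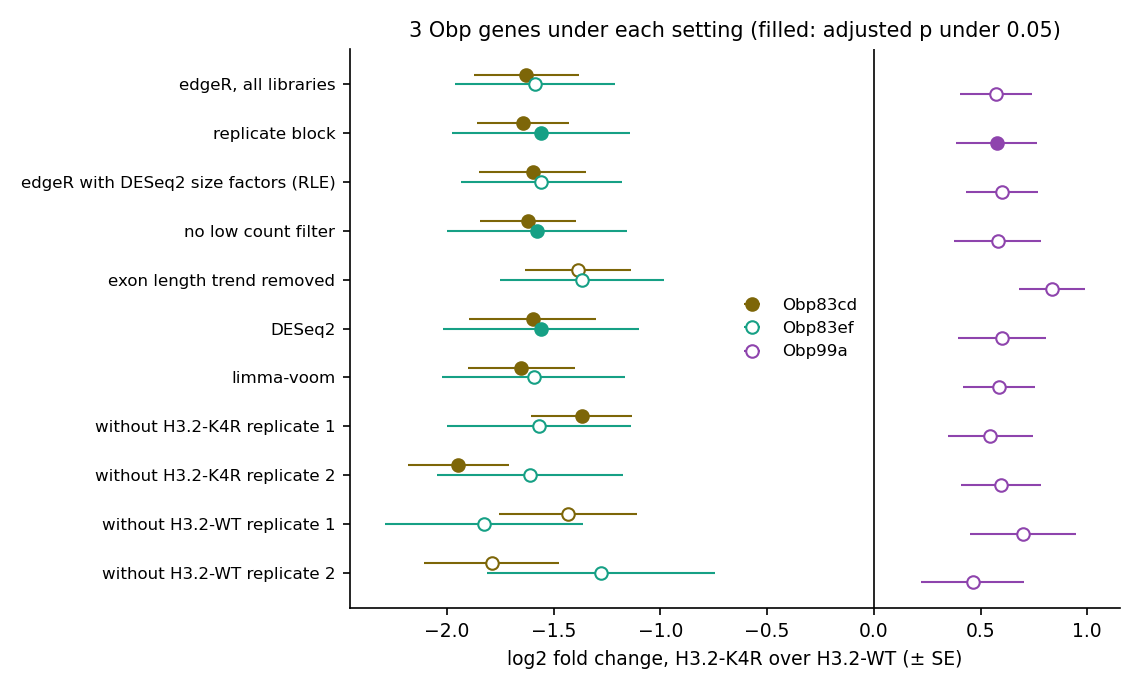
Log2 fold change (± SE) of Obp83cd, Obp83ef and Obp99a in the reported test and 10 other settings; filled points have an adjusted p under 0.05 over all genes tested in that setting. Obp83cd and Obp83ef stay between -1.95 and -1.28 and Obp99a between 0.46 and 0.83.

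The 5 tested Obp56 genes gave no call by edgeR, DESeq2 or limma-voom, with 0 at an unadjusted edgeR p under 0.05, and their log2 fold changes lay on both sides of 0. Obp56a (2R, 19697723 to 19698508) had 143 and 115 counts in H3.2-K4R and 43 and 80 in H3.2-WT, or 3.35 and 3.18 CPM against 1.26 and 1.72 CPM, without overlap (1.13 ± 0.51, SE; edgeR adjusted p = 0.312). Obp56b had 33 and 16 counts in H3.2-K4R and 62 and 20 in H3.2-WT. Obp56c had 9 and 0 counts in H3.2-K4R and 35 and 20 in H3.2-WT, also without overlap, with a log2 fold change of -2.72 ± 1.75 and a 95% interval that includes 0. Leaving out H3.2-K4R replicate 2 gave -1.77, and leaving out replicate 1 of that group, so that its lone library was at 0 counts, gave -7.83. Obp56d, the most abundant of these genes, had 903 and 730 counts in H3.2-K4R and 790 and 564 in H3.2-WT (0.23 ± 0.29). Obp56h, which in adult males affects mating and cuticular pheromones, had 301 and 212 counts in H3.2-K4R and 302 and 292 in H3.2-WT (-0.23 ± 0.31).

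The most abundant members apart from those of chromosome arm 3R had overlapping groups. Obp44a (2R, 8134170 to 8135315) had 5041 and 2605 counts in H3.2-K4R and 4026 and 4642 in H3.2-WT (log2 fold change -0.20 ± 0.23, SE; 95% interval -0.74 to 0.35). Obp28a (2L, 7496791 to 7497365), a single-exon gene, had 2571 and 1301 counts in H3.2-K4R and 2143 and 2369 in H3.2-WT (-0.24 ± 0.25; 95% interval -0.83 to 0.34). In both genes H3.2-K4R replicate 2 was the lowest library by CPM. Without replicate 2 their log2 fold changes were 0.12 and 0.08.

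Plus-C members had 1 log2 fold change above 0 and 5 below, with 0 past the threshold by edgeR, DESeq2 or limma-voom and 0 at an unadjusted edgeR p under 0.05. Obp47b had 569 and 402 counts in H3.2-K4R and 544 and 619 in H3.2-WT (-0.26 ± 0.22). Obp49a, which in adult taste bristles is needed for bitter compounds to suppress sweet taste, had 336 and 207 counts in H3.2-K4R and 309 and 268 in H3.2-WT (-0.12 ± 0.34). Obp85a had 18 and 26 counts in H3.2-K4R and 39 and 83 in H3.2-WT, without overlap but with a wide 95% interval of -3.43 to 0.70. DESeq2 gave this gene no adjusted p. The remaining detected genes of this subfamily, Obp50e, Obp58b and Obp58c, had between 0 and 32 counts in H3.2-K4R and between 13 and 33 in H3.2-WT.

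Obp8a (X, 9214876 to 9215699) had 0 and 0 counts in H3.2-K4R and 14 and 27 in H3.2-WT. The edgeR adjusted p was 0.219, and none of the 9 other settings in which it was tested called it. One of these, DESeq2, gave it no adjusted p and so could not call it. Obp18a (X, 19135081 to 19135868) had 49 and 44 counts in H3.2-K4R and 50 and 70 in H3.2-WT, and Obp84a had 34 and 0 in H3.2-K4R and 19 and 11 in H3.2-WT. The 95% interval of Obp18a was -1.95 to 1.29.

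Genes of receptors that work beside these proteins were also looked at. Of 60 odorant receptor genes, 8 were detected, with a summed level over the list of 6.31 and 6.86 CPM in H3.2-K4R and 7.48 and 8.34 CPM in H3.2-WT. Orco, the shared subunit of odorant receptors, had 103 and 54 counts in H3.2-K4R and 67 and 132 in H3.2-WT. Among 60 ionotropic receptor genes 16 were detected, with a sum of 29.5 and 25.3 CPM in H3.2-K4R and 30.2 and 33.0 CPM in H3.2-WT. Among 60 gustatory receptor genes 10 were detected, with a sum of 9.24 and 5.48 CPM in H3.2-K4R and 8.69 and 5.15 CPM in H3.2-WT. Of the 33 genes tested in these 3 lists, 0 passed over all genes by edgeR, DESeq2 or limma-voom. Genes with few counts may lack a DESeq2 adjusted p, as Obp85a did, and could then not be called by it. At an unadjusted edgeR p under 0.05, 3 of the 33 were lower, beside 9.2% of all tested genes, and 0 were higher, beside 7.68%, so the receptor lists were near the background. The 3 genes were Or2a, at 6 and 1 counts in H3.2-K4R and 49 and 55 in H3.2-WT, Ir87a, at 195 and 186 against 246 and 533, and the coreceptor gene Ir25a, at 126 and 106 against 206 and 254 (-0.97 ± 0.35, edgeR adjusted p = 0.234).

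Genes listed as other carrier and pocket proteins, which include the membrane protein genes Snmp1 and Snmp2, were compared as well. Of 28 listed genes 6 were detected and 0 passed by edgeR, DESeq2 or limma-voom, with 5 below 0 and 1 above. At an unadjusted edgeR p under 0.05, 1 was higher, beside 7.68% of all tested genes. It was the gene to, at 15 and 11 counts in H3.2-K4R and 0 and 0 in H3.2-WT. Phk-3, of the chemosensory protein family, had 34035 and 27156 counts in H3.2-K4R and 27865 and 38741 in H3.2-WT, and its mean of 912 CPM per kilobase was above that of Obp83g. PebIII, of the same family, had 4721 and 3282 counts in H3.2-K4R and 4249 and 5171 in H3.2-WT (-0.23 ± 0.16).

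Cell type markers were set beside the members. Over all tested genes, 9.2% were lower and 7.68% higher at an unadjusted edgeR p under 0.05, and 51.9% had a log2 fold change below 0. Whether each listed gene is limited to its cell type was not tested, so a sum does not measure that cell type alone. All 9 listed genes of sense organ support cells were detected and 0 passed by edgeR, DESeq2 or limma-voom, also at an unadjusted edgeR p under 0.05, with a summed level of 1159 and 1242 CPM in H3.2-K4R and 1036 and 1186 CPM in H3.2-WT, and a median log2 fold change of -0.01. Of 10 genes listed for sensory neurons 8 were detected, and 0 passed by edgeR or limma-voom and futsch by DESeq2. At an unadjusted edgeR p under 0.05, 2 were higher (futsch and acj6). The list summed to 1070 and 1118 CPM in H3.2-K4R and 841 and 916 CPM in H3.2-WT. Its largest part was elav, a gene of neurons in general, at 431 and 554 CPM in H3.2-K4R and 357 and 447 CPM in H3.2-WT. The median log2 fold change was 0.23, with 6 above 0 and 2 below. The sensory channel genes nompC and iav were the 2 below 0 (-0.36 ± 0.18 and -1.06 ± 1.46), and nan was at 0.23 ± 1.33. The 9 genes listed for glia had 7 log2 fold changes below 0 and a median of -0.38. Of these, 0 passed the threshold by edgeR, DESeq2 or limma-voom. At an unadjusted edgeR p under 0.05, 3 were lower (alrm at -0.74 ± 0.20, moody and Eaat1). The list summed to 924 and 886 CPM in H3.2-K4R against 990 and 938 CPM in H3.2-WT. Its largest parts were Gs2, at 395 and 404 CPM in H3.2-K4R and 395 and 324 CPM in H3.2-WT, and nrv2, at 255 and 233 against 277 and 268 CPM. Hemocyte markers, 6 of 6 detected, summed to 184 and 147 CPM in H3.2-K4R and 158 and 186 CPM in H3.2-WT, with 0 past the threshold by edgeR, DESeq2 or limma-voom (1 higher at an unadjusted edgeR p under 0.05). Of 9 gut genes, 1 rose by edgeR (Mal-A1), 2 by DESeq2 (Mal-A1 and Jon65Aiv) and 2 by limma-voom (Mal-A1 and Amy-p), 4 were higher at an unadjusted edgeR p under 0.05 (Mur18B besides these), and the list summed to 731 and 441 CPM in H3.2-K4R and 414 and 255 CPM in H3.2-WT. Of 8 fat body genes, 6 were detected and 1 rose by edgeR, DESeq2 and limma-voom (Lsp1gamma; Apoltp was also higher at an unadjusted edgeR p under 0.05), at a summed level of 477 and 470 CPM in H3.2-K4R and 370 and 417 CPM in H3.2-WT. The part of these cell types in the differences of Obp83cd and Obp83ef was not tested.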

How the data were processed

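Total RNA of 4 libraries was sequenced after depletion of ribosomal RNA, from about 0.25 µg of RNA each. The deposited table holds counts of read pairs per gene, made with featureCounts 2.0.6 on 1 strand over exons, without multi-mapping pairs or pairs shared by several genes, per the file headers. The submitters' processing notes name build dm6, Subread 2.0.6, SAMtools 1.9 and the aligner STAR 2.7.7a. The wild-type columns, called HWT, were matched to H3.2-WT by stage and replicate number.

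Here edgeR 4.0.16 (R 4.3.3) was run on the whole table: filterByExpr (minimum count 10, minimum total 15; 11562 genes kept), TMM, the quasi-likelihood test without a block, and Benjamini-Hochberg adjustment at 0.05. The SE is the unshrunken log2 fold change over the square root of F. CPM uses TMM library sizes. With 2 against 2 libraries an exact permutation test cannot go below p = 0.333. Alternatives were DESeq2 1.42.0, limma-voom 3.58.1, other size factors, no filter, a replicate block, removal of an exon-length trend and leaving out libraries. Coordinates are those of the table; 49 of 51 members have the same start and end in Ensembl release 115, the source of protein lengths. The members and lists were chosen with earlier results of these data known. Named with values per library were the 8 tested members of lowest p and the 10 of highest level. From each list, up to 3 genes were to be named, but more were named from some lists. The further listed genes, and the other members named with counts, were chosen after their values were seen. Of the listed marker symbols, EbpIII, apolpp and Acp70A had no match.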

Additional observations from a re-analysis of the deposited data

How the results depend on the processing

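The count of Obp genes that fell was 2 (Obp83cd and Obp83ef) with a replicate block, without a filter on low counts and with DESeq2, 0 with the exon-length trend removed, and 0 to 1 when 1 library was left out. Obp genes that rose numbered 1 (Obp99a, adjusted p = 0.0274) with the replicate block and 0 in every other setting run. Over all genes, 48 rose and 20 fell in the reported test, against 608 and 758 with the replicate block, 452 and 527 without a filter, 358 and 307 with DESeq2, 101 and 72 with limma-voom, and 92 higher with the exon-length trend removed. With 1 library left out these counts ran from 1 to 251 higher and from 0 to 587 lower. The median of the tested members ran from -0.58 to 0.084 with 1 library left out. These fits tested 25 to 27 members, against 22 in the reported test, so the sets of genes differ. Detection by 1 CPM gave 14 genes, detection in all 4 libraries 16, and more than 3 counts in 2 libraries 29.

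With the exon-length trend removed the log2 fold changes of 6 members changed sign, to 0.11 for Obp83g, 0.018 for Obp44a, 0.015 for Obp28a, 0.16 for Obp99c, 0.039 for Obp56h and 0.12 for Obp49a. With 1 library left out the log2 fold changes of 11 of the 22 tested members took both signs. Among the members of highest level or lowest p these were -0.60 to 0.12 for Obp44a, -0.67 to 0.084 for Obp28a, -0.70 to 0.34 for Obp99c, -0.16 to 0.78 for Obp56d, -0.46 to 0.051 for Obp56h and -0.41 to 0.25 for Obp49a. None of the 11 members was called in any setting run, Obp8a did not pass the low-count filter without H3.2-WT replicate 2, and the cause of the changes was not tested. The replicate numbers are shared by the groups, but 2 pairs cannot show that they pair the libraries: the deviations of same-numbered libraries correlated at 0.106 across genes. Members with few counts had wide intervals, so depth limits what can be said of them.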
